A study of Mus musculus with 5 samples.

Results

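The GATA factors and their Fog cofactors were followed in the dorsal pancreatic bud of E10.5 mouse embryos (midgestation, when the bud is new) that lacked Ptf1a or kept 1 working copy of it. The set holds every probe set that the platform annotation gives to exactly 1 of 7 genes, namely Gata2, Gata3, Gata4, Gata5, Gata6, Zfpm1 (Fog1) and Zfpm2 (Fog2). That made 14 probe sets of 45037 tested, 10 for the GATA genes and 4 for the Fog genes, and 7 genes of 18193 named. The genes were chosen as a family, with earlier results of these data known. No probe set of the family was called as changed between the genotypes.

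The pancreas does not form properly without Ptf1a, a transcription factor of the basic helix-loop-helix class. The null group was 3 arrays from C57BL/6J embryos labelled as null mutants for Ptf1a, and the group it was set against was 2 arrays from heterozygous embryos of the same strain and stage. Every embryo came from a mating of heterozygotes, so the heterozygotes also carried a mutant allele, and no wild-type array was among the samples analysed here. Each array received RNA pooled from 3 buds, freed mechanically of mesenchyme and amplified through 2 linear rounds, on an Affymetrix mouse GeneChip. The labels do not say which litters the pools came from, so p-values measure only the spread between these pools, and precision is limited throughout by how few arrays there are.

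GATA factors are zinc finger proteins that bind the DNA motif they are named after, mostly through the second of their 2 fingers. Gata4, Gata5 and Gata6 act in endoderm, heart and gut, and in the mouse Gata4 and Gata6 together are needed to build the pancreas. Gata2 and Gata3 act mainly in blood cells, vessels and the nervous system, and Gata3 also in T cells. The Fog proteins do not work by binding DNA on their own: they attach to a GATA factor and bring in corepressors such as CtBP proteins and the NuRD chromatin complex. Zfpm1 is the partner of Gata1 in red cells and megakaryocytes, and Zfpm2 is the partner of Gata4 in heart and gonad.

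The deposited values are linear signal intensities, which were put on a log2 scale and quantile normalised. The median deposited intensity was 13.7 to 16.4 on null arrays and 14.4 to 17.5 on heterozygote arrays. The background level of an array was set from 27 of its control probe sets, those for genes of Bacillus subtilis, at their 95th percentile. It lay between 3.07 and 3.17 on null arrays and between 3.03 and 3.29 on heterozygote arrays, on the log2 scale, and a probe set is called detected here where it lay above it. Genotypes were compared with limma in a fit with one shared prior spread, called untrended. A trended fit, in which the prior spread follows signal level, is given beside it. Ptf1a itself had log2 signals of 5.21, 6.07 and 5.00 in the nulls, against 7.10 and 7.33 in the heterozygotes, without passing (limma adjusted p = 0.651 untrended and 0.457 trended).

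Of the 14 probe sets, 6 were detected on all 5 arrays, 7 on some arrays and 1 on none. Gata2, Gata4, Gata6, Zfpm1 and Zfpm2 each had at least 1 probe set detected on every array. Gata5 was detected on some arrays only, and Gata3, which has 1 probe set, on none. The leading probe set of a gene is here the one with the highest mean over all arrays. Probe sets differ in how brightly they report the same RNA, so no order of level between the genes is given.

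**Figure D1:**
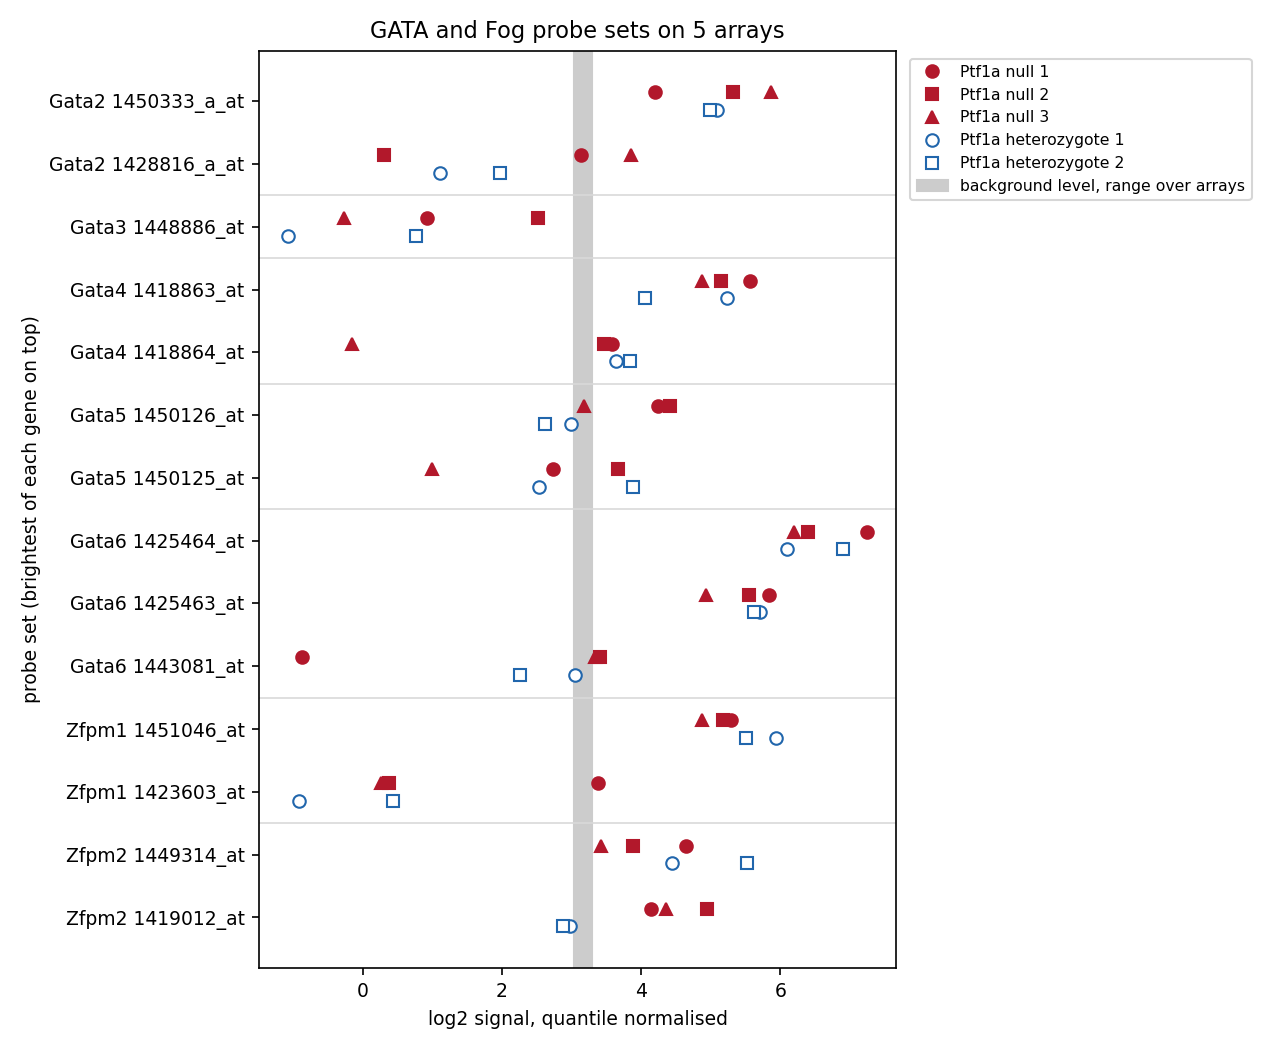
Log2 signal of the 14 GATA and Fog probe sets (rows, grouped by gene) on 3 Ptf1a null arrays (filled red) and 2 Ptf1a heterozygote arrays (open blue), with the background level as a grey band. The Gata6 probe set 1425464_at lies right of the band on all 5 arrays, Gata3 lies left of it on all 5, and at 4 of the 14 rows the genotypes do not overlap.

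In neither limma fit did any of the 14 probe sets pass at an adjusted p under 0.05. The lowest adjusted p was 0.658 untrended and 0.976 trended. Over all 45037 probe sets the untrended fit called 0, which is 0% of those tested, and the trended fit called 8, which is 0.0178%. At an unadjusted p under 0.05 there was 1 family probe set of 14 in each fit, against 5.52% of all probe sets untrended and 4.93% trended. In the nulls 8 of the 14 probe sets were higher and 6 lower, with a median log2 change of 0.11, against -0.0099 over all probe sets. The groups did not overlap at 4 of the 14, with nulls higher at 2 and lower at 2. Over all probe sets the nulls stood clear of the heterozygotes on the higher side in 9.9% and on the lower side in 10.1%, together 20%, which is 2.8 probe sets in 14. One gene, Gata3, had a single probe set; at Gata4, Gata5, Gata6, Zfpm1 and Zfpm2 the probe sets of a gene differed in the sign of their change.

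**Figure D2:**
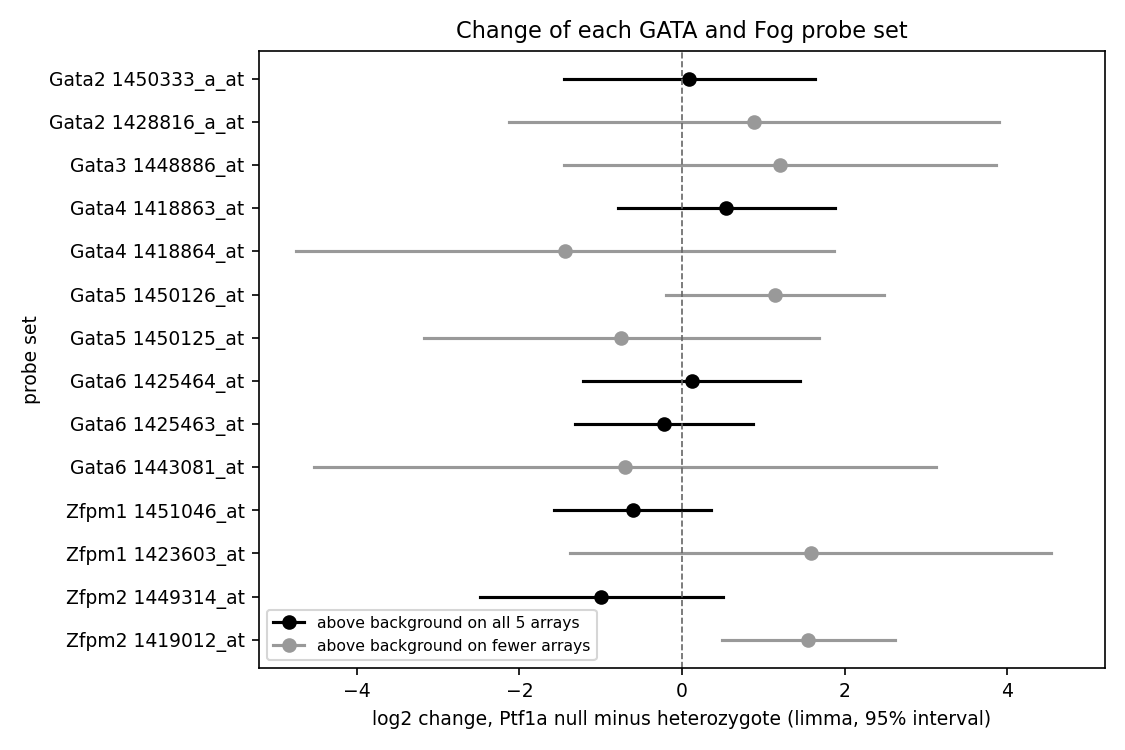
Log2 change of each probe set, Ptf1a null minus heterozygote, with its 95% interval from the untrended limma fit (3 null and 2 heterozygote arrays). Black marks probe sets detected on all 5 arrays and grey the others; 13 of the 14 intervals include 0, the exception being Zfpm2 1419012_at, which did not pass adjustment.

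Gata6, a GATA factor of endoderm that marks the early pancreatic epithelium, was detected on every array at both of its brighter probe sets. At 1425464_at the log2 signal was 7.25, 6.40 and 6.19 on null replicates 1 to 3, against 6.09 and 6.90 on heterozygote replicates 1 and 2. The groups overlapped, with the highest value on a null array and the lowest on a heterozygote array. The means were 6.61 ± 0.56 (SD, n = 3) in nulls and 6.50 ± 0.57 (SD, n = 2) in heterozygotes, a log2 change of 0.12 with a 95% interval of -1.22 to 1.46 (limma adjusted p = 0.999 untrended).

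At 1425463_at Gata6 had 5.84, 5.55 and 4.93 in nulls, against 5.71 and 5.62 in heterozygotes. The heterozygote values lay inside the range of the nulls. The change was -0.22 on the log2 scale, with an interval of -1.32 to 0.88 (limma adjusted p = 0.999 untrended). The remaining Gata6 probe set, 1443081_at, was detected on 2 null arrays and 1 heterozygote array. It had -0.87, 3.41 and 3.34 in nulls, against 3.05 and 2.27 in heterozygotes, so a single null array lay far below the others. The intervals of the 3 Gata6 probe sets all include 0, and each reaches beyond 1 in size on the log2 scale on both sides, except that the upper bound at 1425463_at is 0.88. The sign at 1425464_at is not settled: without normalisation the change was -0.029, and leaving out heterozygote replicate 1 gave -0.28 while leaving out heterozygote replicate 2 gave 0.52.

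Gata4 acts beside Gata6 in the early bud. Its leading probe set, 1418863_at, had 5.56, 5.14 and 4.88 in nulls, against 5.24 and 4.05 in heterozygotes. Heterozygote replicate 2 was the lowest of the 5 arrays, and heterozygote replicate 1 lay within the nulls. The means were 5.19 ± 0.34 (SD, n = 3) in nulls and 4.65 ± 0.84 (SD, n = 2) in heterozygotes, a log2 change of 0.55 with an interval of -0.78 to 1.88 (limma adjusted p = 0.995 untrended). Without heterozygote replicate 2 the change was -0.044, and without heterozygote replicate 1 it was 1.14, so that 1 array sets its size and sign.

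The dimmer Gata4 probe set, 1418864_at, went the other way. It had 3.58, 3.47 and -0.16 in nulls, against 3.64 and 3.83 in heterozygotes. All 3 nulls lay below both heterozygotes, but the gap between the groups was only 0.065 on the log2 scale, and null replicate 3 was under background. The change of -1.44 (interval -4.75 to 1.87, limma adjusted p = 0.992 untrended) was -0.21 without null replicate 3. In deposited intensity that array read 0.975, against 12.3 and 10.1 on the other null arrays and 13.9 and 13.1 on the heterozygote arrays.

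Gata5, the GATA factor of gut and heart lining closest to Gata4 and Gata6, was dim. At 1450126_at it had 4.24, 4.42 and 3.18 in nulls, against 2.99 and 2.62 in heterozygotes. All 3 null arrays were above background and both heterozygote arrays below it, with a gap of 0.19 between the groups. With each heterozygote array raised to its background level, the mean signal was 1.72-fold higher in nulls, a point estimate and not a lower bound. The measured log2 change was 1.14, with an interval of -0.20 to 2.48 that includes 0 (limma adjusted p = 0.947 untrended and 0.976 trended). The measured means were 3.95 ± 0.67 (SD, n = 3) in nulls and 2.80 ± 0.26 (SD, n = 2) in heterozygotes. The other Gata5 probe set, 1450125_at, was detected on 1 null array and 1 heterozygote array. It had 2.74, 3.66 and 0.99 in nulls, against 2.53 and 3.88 in heterozygotes, with the groups overlapping.

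Gata2, known in blood progenitors, endothelium and neurons, had a leading probe set, 1450333_a_at, detected on every array. Its log2 signal was 4.19, 5.32 and 5.87 in nulls, against 5.08 and 4.99 in heterozygotes. The nulls spread widely around the close pair of heterozygotes, from the lowest to the highest value of the 5 arrays. The change was 0.093 with an interval of -1.45 to 1.63 (limma adjusted p = 0.999 untrended), and it was -0.031 without normalisation, 0.56 without null replicate 1 and -0.28 without null replicate 3. Endothelial markers varied among the same arrays: of 14 measured, their median relative to each gene's own mean was -0.20, -0.040 and 0.61 on null replicates 1 to 3, and 0.47 and -0.32 on heterozygote replicates 1 and 2. Their summed signal was 332 to 649 in nulls and 381 to 571 in heterozygotes, and 11 of them were detected on all arrays. Among the nulls, Gata2 was lowest and highest on the same arrays as those markers, and their part in its spread was not tested.

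The other Gata2 probe set, 1428816_a_at, was detected on 2 null arrays and no heterozygote array. It had 3.14, 0.30 and 3.85 in nulls, against 1.11 and 1.96 in heterozygotes. The groups overlapped, and with background as the floor no fold can be given. Gata3, at 1448886_at, had 0.93, 2.52 and -0.27 in nulls, against -1.07 and 0.77 in heterozygotes, every value under background. A direction cannot be read for Gata3 at this signal.

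Zfpm1 had the narrowest 95% interval of the 14 probe sets, at 1451046_at. It had 5.29, 5.17 and 4.88 in nulls, against 5.94 and 5.50 in heterozygotes. The 3 null arrays were all lower than either heterozygote, by a gap of 0.21. The means were 5.11 ± 0.21 (SD, n = 3) in nulls and 5.72 ± 0.31 (SD, n = 2) in heterozygotes, a 1.52-fold lower signal (log2 change -0.61, interval -1.57 to 0.35) that did not pass (limma adjusted p = 0.991 untrended and 0.976 trended). With an array left out the change was between -0.82 and -0.39. The other Zfpm1 probe set, 1423603_at, had 3.38 on null replicate 1 and was under background elsewhere, at 0.38 and 0.27 in the other nulls, against -0.91 and 0.43 in heterozygotes.

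Red cells are a known site of Zfpm1. Of 13 erythroid markers measured, 10 had a lower mean in nulls; the median change of the list was -0.81, with no member called in either limma fit. That median was -0.28 with an offset of 16 and -0.46 with values raised to background. By array the list was lowest on null replicate 2 (-0.61 relative to each gene's own mean) and highest on heterozygote replicate 2 (0.73), whereas Zfpm1 at 1451046_at was lowest on null replicate 3 and highest on heterozygote replicate 1. The summed signal of the erythroid markers was 7982 to 8905 in nulls and 9589 to 12028 in heterozygotes, with Hbb-y (log2 change -0.063) the brightest of them. Of these markers 8 were detected on all arrays and 1 on none, and Gata1, the red cell GATA factor, had 4.19, 4.22 and 3.62 in nulls, against 3.08 and 4.51 in heterozygotes. The part of red cells in the Zfpm1 values was not tested. In bulk RNA of this kind, fewer cells of a type and less RNA per cell cannot be told apart.

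Zfpm2 gave opposite values at its probe sets, which the annotation ties to the same transcript record. At 1449314_at it had 4.65, 3.88 and 3.42 in nulls, against 4.44 and 5.52 in heterozygotes. The groups overlapped through null replicate 1, and the log2 change was -0.99 with an interval of -2.49 to 0.50 (limma adjusted p = 0.991 untrended). With an array left out it ranged from -1.53 without heterozygote replicate 1 to -0.46 without heterozygote replicate 2. At 1419012_at it had 4.14, 4.95 and 4.35 in nulls, against 2.97 and 2.88 in heterozygotes. Here the nulls stood above the heterozygotes by a gap of 1.17, the widest of the 4 separated probe sets. All 3 nulls were above background and both heterozygotes below it. With each heterozygote array raised to its background level, the mean signal was 2.49-fold higher in nulls, a point estimate and not a lower bound.

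The measured log2 change at 1419012_at was 1.55 (SE 0.41, interval 0.49 to 2.61). Its unadjusted p was 0.0132 untrended and 0.0294 trended in limma, and it did not pass adjustment over all probe sets (adjusted p = 0.658 and 0.976). In deposited intensity it read 18.6, 25.5 and 21.2 in nulls, against 8.60 and 6.65 in heterozygotes. With an array left out the log2 change stayed between 1.32 and 1.72, and it was 0.71 with an offset of 16 added before the log.

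Probe sets of the same gene were set against each other within each array, which made 8 pairs. For Zfpm2 the difference 1449314_at minus 1419012_at was 0.51, -1.07 and -0.93 in nulls, against 1.47 and 2.63 in heterozygotes. The nulls lay below both heterozygotes, and the changes of the probe sets differed by -2.55. An exact two-sided permutation test gave p = 0.1, the smallest that 3 against 2 arrays allow, and 0.4 after Benjamini-Hochberg adjustment over the 8 pairs. The pair of Gata5 gave the same p, with a difference of 1.89, and the other 6 pairs had p of 0.2 or more. The design cannot reach 0.05 in this test.

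Mesenchyme is a known site of Zfpm2 and Gata4. The buds had been freed of it mechanically, but some of its markers were still bright on every array. Col3a1 had log2 signals of 9.23, 8.70 and 9.02 in nulls, against 9.02 and 7.82 in heterozygotes. Pdgfra had 7.99, 8.04 and 8.67 in nulls, against 7.85 and 7.52 in heterozygotes. Of 17 mesenchyme markers measured, 14 had a higher mean in nulls; the median change of the list was 0.56, or 0.36 with values raised to background, with none called in either limma fit. Their summed signal was 1709 to 2147 in nulls and 1355 to 1619 in heterozygotes. On all arrays 8 of the 17 were detected, against 10376 of 18193 genes. Among the 8 were Col1a1, Foxf1 and Postn, with log2 changes of 0.68, 0.65 and 1.10. Twist1 was detected on none. The list was lowest on heterozygote replicate 2, at -0.57 relative to each gene's own mean, and Gata4 at 1418863_at and Zfpm2 at 1419012_at were lowest on the same array. Zfpm2 at 1449314_at was highest there. The part of mesenchyme in these values was not tested.

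**Figure D3:**
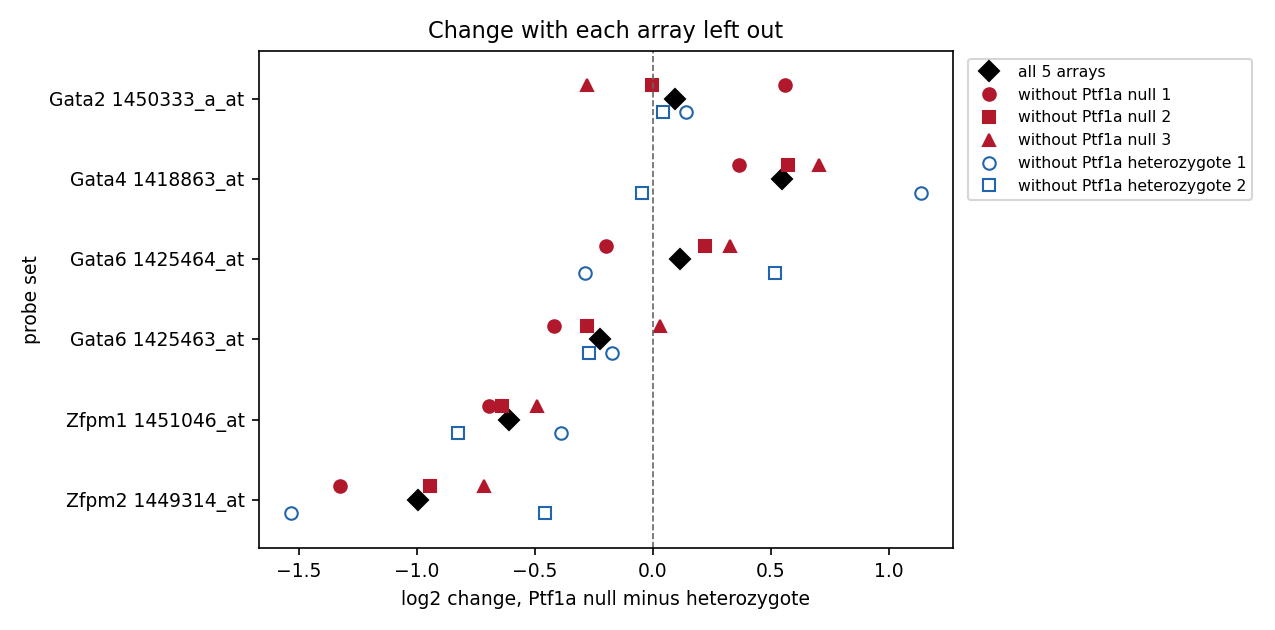
Log2 change, Ptf1a null minus heterozygote, of the 6 probe sets detected on all 5 arrays, with all arrays (diamond) and with each array left out in turn (other marks). Zfpm1 1451046_at and Zfpm2 1449314_at stay below 0 in each case, whereas the other 4 probe sets, of Gata2, Gata4 and Gata6, have values on both sides of 0.

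The 6 probe sets detected throughout set the precision for the family. Their log2 changes ran from -0.99 to 0.55, with 3 higher and 3 lower and a median of -0.064, against -0.0050 over the 20815 probe sets detected on all arrays. The half-width of their 95% intervals was 0.962 to 1.54 on the log2 scale. For the 8 probe sets detected on fewer arrays it was 1.06 to 3.83. A change equal to that at Ptf1a (-1.79) lies below the interval at the leading probe sets of Gata2, Gata4, Gata6 and Zfpm1 and inside it at that of Zfpm2. An equally large rise lies above the interval at the leading probe sets of Gata2, Gata6, Zfpm1 and Zfpm2 and inside it at that of Gata4. These bounds do not hold for every probe set of these genes. Such a rise lies inside the interval at Zfpm2 1419012_at (0.49 to 2.61) and Zfpm1 1423603_at (-1.38 to 4.55). Both changes lie inside it at Gata2 1428816_a_at (-2.12 to 3.91), Gata4 1418864_at (-4.75 to 1.87) and Gata6 1443081_at (-4.53 to 3.13). Neither lies inside it at Gata6 1425463_at (-1.32 to 0.88).

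Promoter sequence from RefSeq (build GRCm38.p6) was in the table used here for 4 of the 7 genes: Gata2, which has 2 starts, Gata3, Gata5 and Zfpm1. The 250 bases before the start are shown for Gata5 and Zfpm1, the genes in that table at which the groups separated at the leading probe set. Gata5 is at chr2:180334680-180334929 on the minus strand and Zfpm1 at chr8:122281891-122282140 on the plus strand, each written 5′ to 3′ with E-boxes in capitals. Both windows lie inside the annotated gene, downstream of its outermost start. The annotated spans are chr2:180325088-180335503 for Gata5 and chr8:122281856-122337862 for Zfpm1.
Gata5: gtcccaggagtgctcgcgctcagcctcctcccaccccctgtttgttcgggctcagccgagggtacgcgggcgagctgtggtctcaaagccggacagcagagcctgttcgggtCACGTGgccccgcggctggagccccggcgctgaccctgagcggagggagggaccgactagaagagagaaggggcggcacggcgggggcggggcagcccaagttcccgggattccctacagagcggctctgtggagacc
Zfpm1: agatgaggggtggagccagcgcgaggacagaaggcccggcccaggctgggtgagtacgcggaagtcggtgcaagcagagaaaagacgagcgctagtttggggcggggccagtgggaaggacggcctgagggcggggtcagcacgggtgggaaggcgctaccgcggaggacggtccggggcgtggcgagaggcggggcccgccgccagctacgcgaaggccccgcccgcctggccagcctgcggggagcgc
The E-box CANNTG, the motif bound by helix-loop-helix factors such as Ptf1a, was searched on both strands from 250 bases before to 50 after each start. Gata5 held 1, CACGTG, at position -138 from the start, Gata3 and the second Gata2 start held 1 each, both CAGCTG, and Zfpm1 and the first Gata2 start held none. Of 32817 promoters of this length, 72.3% held an E-box. A GATA site (AGATAA or TGATAA or AGATAG or TGATAG, on both strands) was found in the Gata3 window alone of these 5, against 29.8% of all promoters. The sequence TTTCCC, the second part of the site that the Ptf1a complex binds, was found on either strand in none of the 5, against 25.2% of all. These matches describe letters in a window and nothing about binding.

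Partners of GATA and Fog proteins were split between higher and lower. Of 17 Fog and corepressor partners, 10 were higher and 7 lower, the median change being 0.042, against 8929 higher and 9264 lower of 18193 genes and a median of -0.012 overall. All 17 were detected on every array, and none was called in either limma fit. The members with the largest changes were Gatad2b (-0.52) and Mta1 (-0.51), both of the NuRD complex, and Nr2f2 (0.41), a nuclear receptor that binds Fog2. Gatad2b had 5.64, 6.08 and 5.89 in nulls, against 6.28 and 6.50 in heterozygotes, with nulls below both heterozygotes.

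Among 20 coactivators and DNA-binding partners, 13 were higher and 7 lower, with a median of 0.15 and none called in either limma fit. The blood factors Tal1 and Lmo2, which form a complex with Gata1 and Gata2, had log2 changes of -0.94 and -0.58, and the heart and vessel factor Mef2c had 0.78, each with overlapping groups. Of 4 other genes with GATA-type zinc fingers, Gata1 had a change of 0.21, the repressor Trps1 -0.32 and Gatad1 -0.13, with none called.

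Endoderm genes near GATA factors in gut, liver and pancreas were split, with 12 higher and 11 lower of 23 measured and a median of 0.20, which turned to -0.059 when heterozygote replicate 1 was left out, against 0.49 when heterozygote replicate 2 was. Foxa1, a forkhead factor of endoderm, was the 1 gene of these lists called, in the trended limma fit only (log2 change 1.82, adjusted p = 0.0219 trended and 0.448 untrended). It lost that call with any 1 of the 5 arrays left out, at trended adjusted p of 0.0863 to 0.362 and log2 changes of 1.69 to 1.94. Afp and Apoa1, secreted proteins of fetal liver and gut, had changes of 1.54 and 1.33 with nulls above both heterozygotes and did not pass. The log2 signal of Afp was 9.76, 10.09 and 9.76 in nulls, against 7.59 and 9.08 in heterozygotes (trended limma adjusted p = 0.360). Its log2 change was 2.28 without heterozygote replicate 2, so its size depends on heterozygote replicate 1, the lowest array. Hnf4a had a log2 change of 0.57 and Pdx1 of -0.51, without passing. Of 11 haematopoietic GATA targets measured, 8 were lower, with a median of -0.46 (-0.18 with an offset of 16) and none called, among them the embryonic globin Hba-x (-1.31), the haem synthesis enzyme Alas2 (-1.29) and the receptor Kit (-0.83).

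The tissue label was checked against markers. Of 16 pancreatic epithelium markers measured, 15 were detected on all arrays, the exception being Cpa1, and 13 were lower in nulls, with a median of -0.43 (-0.21 without heterozygote replicate 2) and none called. Cpa1 was detected on both heterozygote arrays, at 6.21 and 6.03, and on no null array, at 0.72, 0.98 and 0.97. Its measured log2 change was -5.23, without passing. The largest changes among those detected throughout were at Mnx1 (-2.68), Ptf1a (-1.79) and Nr5a2 (-1.24). The summed signal of the list was 5661 to 7247 in nulls and 5855 to 6630 in heterozygotes. Sums of linear signal weigh the brightest markers most. Here those were Krt8 and Krt18, which were higher in nulls (log2 changes of 0.44 and 0.67), against the direction of the list. Liver and gut epithelium markers were higher in nulls for 7 of 11, with a median of 0.70, and 4 were detected on no array. The sign of that median is not settled: it was -0.060 with values raised to background, 0.15 with an offset of 16, 1.09 with dim probe sets left out, 0.0097 without heterozygote replicate 1 and 0.28 without null replicate 3. The largest changes among those detected on all arrays were at Afp, Apoa1 and Alb (1.09). The summed signal of the liver and gut list was 6267 to 6383 in nulls and 4290 to 5831 in heterozygotes, with Ttr (0.20) the brightest marker.

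Markers of other cell types were also measured. Mesothelium had 4 of 9 markers higher and 5 lower in nulls, with a median of -0.12, and 1 detected on all arrays, Podxl (0.17). The mesothelium median was 1.48 with dim probe sets left out and 0.95 without heterozygote replicate 1, so its sign is not settled. Leukocyte and megakaryocyte markers were lower in nulls for 10 of 12, with a median of -0.43 (-0.17 with an offset of 16 and -0.95 without heterozygote replicate 1), and 3 were detected on all arrays, namely Itga2b (-0.25), Csf1r (-0.035) and Cd68 (0.012). Neural crest and autonomic neuron markers were higher in nulls for 7 of 13, with a median of 0.026. Endothelial markers were higher for 8 of 14, with a median of 0.069. Among the markers detected on all arrays, the largest changes in the neural crest list were at Sox10 (0.57), Ret (0.46) and Hand2 (0.16), those in the erythroid list at Ermap (-2.23), Slc4a1 (-1.36) and Hba-x, and those in the endothelial list at Eng (-1.25), Robo4 (0.78) and Ptprb (0.67). Larger changes were measured in these 3 lists at markers detected on fewer arrays, such as Tfap2b (2.49), Rhag (-2.62) and Pecam1 (1.98), named after their values were seen. No marker of these lists was called in either limma fit.

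**Figure D4:**
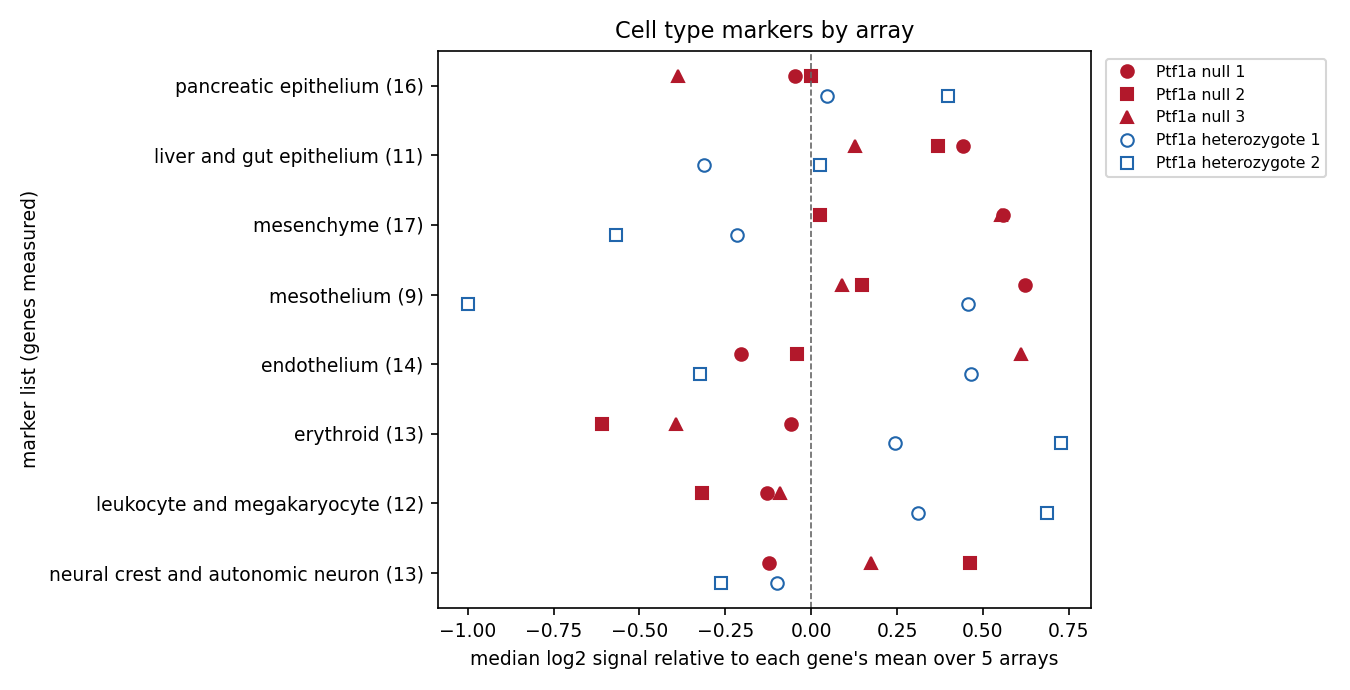
Median log2 signal of 8 cell type marker lists on each array, relative to each gene's mean over the 5 arrays (filled red, Ptf1a null; open blue, Ptf1a heterozygote). All nulls lie right of both heterozygotes for the mesenchyme and the liver and gut lists and left of them for the pancreatic epithelium, erythroid and leukocyte lists. The genotypes overlap for mesothelium, endothelium and neural crest. By single marker, nulls stood above both heterozygotes at 7 of 17 mesenchyme and 2 of 11 liver and gut markers. They stood below both at 7 of 16 pancreatic (above at 2), 6 of 13 erythroid and 1 of 12 leukocyte markers. Over all probe sets 20% did not overlap, and no such share was computed for lists.

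For each family gene whose leading probe set was detected on all arrays, the 3 genes with the most similar profile over the 5 arrays were found among 10376 candidates. Likeness is the root mean square difference between profiles centred on their own means, on the log2 scale. Genes picked in this way on the same arrays have log2 changes close to that of the family gene by construction. Zfpm1 was nearest to Hapln1 (0.044), Vasn (0.051) and Ube2f (0.065), which had log2 changes of -0.59, -0.53 and -0.56. Gata6 was nearest to Miga1 (0.054), Nbeal1 (0.059) and Mgme1 (0.067). Gata4 was nearest to Sbno2 (0.079), Ciz1 (0.079) and Pdia4 (0.080), which had log2 changes of 0.63, 0.46 and 0.59.

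Gata2 was nearest to Mrpl14 (0.071), Atxn2l (0.13) and Pbld2 (0.13). Zfpm2 at 1449314_at was nearest to Lrfn3 (0.082), Dll1 (0.17), a ligand of Notch receptors, and Ebag9 (0.19), which had log2 changes of -1.15, -1.16 and -0.90. With 5 arrays and so many candidates, close profiles are to be found for any gene, and no family member was among the 3 nearest genes of another.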

How the data were processed

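The authors deposited 1 table of linear signal intensity for 45101 probe sets on 5 arrays. Per the submitters' processing notes, GCOS and RMA were used; neither a version nor the role of each is stated, and the background method and genome build are not given in the sources used here. Array medians differed, so the values were not taken as quantile normalised: log2 was taken of the deposited intensities without an offset, followed by quantile normalisation. Tests covered 45037 probe sets, without the 64 controls. Of these, 34945 had 1 gene symbol, 932 several and 9160 none; 34741 were matched by gene ID to RefSeq, which changed 0 names.

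The genotypes were compared with limma 3.58.1 in R 4.3.3 (lmFit and eBayes, genotype as the sole term, two-sided, Benjamini-Hochberg adjustment over all tested probe sets, threshold 0.05). The trended fit used a trend and robust prior. The fits were tested on simulated data. An exact permutation test of 3 against 2 arrays cannot go below 0.1. Lists were described with 1 probe set a gene, the one with the highest mean, and no set test was run. All probe sets of the 7 genes are reported; in each list, genes called in either fit and the 3 largest changes among those detected on all arrays are named, with others named after their values were seen. The members and lists were chosen with earlier results of these data known. Alternatives were median centring, no normalisation, an offset of 16, leaving out dim probe sets (detected on fewer than 2 arrays), raising values to background, the trended fit, a replicate block and each array left out. Same-numbered arrays of the genotypes did not deviate together (correlations of -0.017 and 0.0080 for replicates 1 and 2), so replicate numbers were not taken as pairs.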

Additional observations from a re-analysis of the deposited data

How the results depend on the processing

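In every alternative run, 0 of the 14 GATA and Fog probe sets were called, with a lowest adjusted p of 0.539. The trended fits and the replicate block repeat the log2 changes of other settings; over the remaining alternatives, 126 of 138 probe set values kept the sign of the fit on all arrays and 12 did not. Of the 14 probe sets, 8 never changed sign. Over all probe sets the untrended fit called 0 and the trended fit 8, or 0 to 11 with an array left out (11 without heterozygote replicate 1, 4 without heterozygote replicate 2, 1 without null replicate 2 or null replicate 3, and 0 without null replicate 1). Among list genes the trended fit called 1, Foxa1, and with an array left out 0 to 1, the 1 being Afp without heterozygote replicate 2. Signs changed without normalisation for Gata2 1450333_a_at (-0.031) and Gata6 1425464_at (-0.029), where the median of all probe sets was -0.12. They changed with the offset of 16 for Gata6 1443081_at (0.0063), and with values raised to background for Gata3 (-0.060) and Gata6 1443081_at (0.10). With a replicate block, which leaves null replicate 3 without weight, they changed for Gata2 1450333_a_at (-0.28) and Gata6 1425463_at (0.032), and 0 probe sets were called; the block changed no call. With each array left out, the log2 change ranged from -0.28 to 0.56 for Gata2 1450333_a_at (-0.0039 without null replicate 2), from -0.044 to 1.14 for Gata4 1418863_at, from -0.28 to 0.52 for Gata6 1425464_at (-0.20 without null replicate 1), from -0.42 to 0.032 for Gata6 1425463_at, and from -1.42 to 0.72 for Gata6 1443081_at. The cause of these shifts was not tested. Some lists share genes and are not separate measurements. Hba-x and Alas2 are in the haematopoietic and erythroid lists, Itga2b in the haematopoietic and leukocyte lists, and Afp in the endoderm and liver lists. The median change of a list kept its sign in every alternative run for 6 lists (coactivators, haematopoietic targets, pancreatic epithelium, erythroid, leukocyte and mesenchyme). It changed sign in at least 1 for the other 7, ranging from -0.17 to 0.059 for Fog partners, -0.46 to 0.27 for other zinc finger genes, -0.059 to 0.49 for endoderm genes, -0.20 to 0.30 for endothelium, -0.12 to 1.48 for mesothelium, -0.046 to 0.41 for neural crest and -0.060 to 1.09 for liver and gut. Leaving out dim probe sets removed Gata3 and Zfpm1 1423603_at. Signal close to background limits Gata3, Gata5, Zfpm2 1419012_at and the dimmer probe sets of Gata2, Gata4, Gata6 and Zfpm1.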

Other observations

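Each of the 5 arrays was the lowest or highest at some dim probe set, with the examples picked after their values were seen. Heterozygote replicate 1 was the lowest at Gata3 1448886_at (-1.07) and Zfpm1 1423603_at (-0.91). Heterozygote replicate 2 was the highest at Gata4 1418864_at (3.83) and Gata5 1450125_at (3.88). Null replicate 2 was the lowest at Gata2 1428816_a_at (0.30) and the highest at Gata3 1448886_at (2.52). Null replicate 3 was the lowest of the 5 arrays at Gata4 1418864_at (-0.16) and Gata5 1450125_at (0.99), and null replicate 1 was the lowest at Gata6 1443081_at (-0.87) and the highest at Zfpm1 1423603_at (3.38). The 4 probe sets named for null replicates 1 and 3 were each detected on 1 to 4 of the 5 arrays.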
